A study of Mus musculus with 6 samples.

Results

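The genes described here were the transcription factors Atf4 and Atf5 and 8 effectors of the integrated stress response around them, namely Atf3, Ddit3, Trib3, Chac1, Sesn2, Ddit4, Eif4ebp1 and Niban1. They were taken by symbol from the 55416 genes of the table of normalized counts, which are reads counted per gene and divided by 1 size factor per library. The 10 genes were chosen by symbol once their log2 fold changes between LDL and PBS, and those of many other genes, were known. Their differences in that comparison are therefore given as a description, and no p-value is given for any of them. All 10 passed the filter on low values, a mean of at least 10 normalized counts, as did 18459 genes in all. The lowest mean among the 10 was 58.6, that of Atf3.

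RNA-Seq was performed in organoids, epithelial structures grown in Matrigel from small intestine crypts of C57BL/6 mice with the genotype label WT in all 6 libraries. The crypts came from the duodenum and jejunum, and no age was given in the sources used here. Organoids of each of 3 mice were exposed to LDL, the lipoprotein that carries most plasma cholesterol, at 50 μg/ml over 5 days, or to the vehicle PBS over the same 5 days. The 3 LDL-treated and 3 PBS-treated libraries shared animal identifiers by replicate number, so that LDL replicate 1 and PBS replicate 1 both came from mouse 1, and likewise for mice 2 and 3. The identifiers of mice 1 and 2 begin with WT and that of mouse 3 does not, so its genotype rests on the genotype label alone, and values without both of its libraries are given for that reason. The comparison addresses what LDL exposure does to gene expression in these organoids. A bulk library cannot tell fewer cells of a type apart from less RNA per cell.

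In the integrated stress response, kinases that sense amino acid shortage, unfolded protein in the endoplasmic reticulum, double-stranded RNA or heme shortage phosphorylate the alpha subunit of the initiation factor eIF2. Translation in general is then lowered, while upstream open reading frames let ribosomes translate the mRNAs of Atf4 and Atf5. ATF4 pairs with C/EBP and other bZIP proteins and raises genes for amino acid synthesis, amino acid transport, tRNA charging and stress effectors. Because this control acts on translation, mRNA levels of Atf4 and Atf5 do not give the amount of their proteins, which was not measured here.

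The libraries held 22061545 to 31073360 reads on genes. The LDL-treated library of mouse 1 stood apart from the rest. Protein-coding genes took 68.3% of its normalized counts and 77.1% to 81.8% in the other 5, and 35781 genes had a read in it against 29285 to 32751 in the others. Its most abundant gene was Rn18s-rs5, an 18S ribosomal RNA locus, with 7.62% of its normalized counts. Values without LDL replicate 1 are given beside the results they change.

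The sequence that ATF4 and its C/EBP partners are known to recognise is the C/EBP-ATF response element, searched here as TGATGNAA and in the stricter form TGATGCAAT, which contains the first. Both strands were searched in the 300 bases before the start of each gene's canonical transcript, in the GRCm39 genome with GENCODE M39 starts. TGATGNAA was present for 4 of the 10 genes, Atf3, Ddit3, Chac1 and Sesn2, and for 882 (4.08%) of 21627 protein-coding genes. TGATGCAAT was present for Ddit3 alone among the 10, and for 0.227% of all promoters. Over 1000 bases the 4 genes were the same, and TGATGNAA was present in 13.5% of promoters. The 4 matches are shown because they are what a reader would look for beside the expression values, and they fell in genes that went in different directions. Each sequence is written 5′ to 3′ on the strand of its gene, and the capitals mark the match, which reads TGATGNAA on the opposite strand.
Chac1, plus strand, chr2:119181519-119181548: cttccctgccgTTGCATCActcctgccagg
Sesn2, minus strand, chr4:132238016-132238115: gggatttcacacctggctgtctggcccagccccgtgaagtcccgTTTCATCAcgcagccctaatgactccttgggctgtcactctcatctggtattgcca
Atf3, minus strand, chr1:190915588-190915687: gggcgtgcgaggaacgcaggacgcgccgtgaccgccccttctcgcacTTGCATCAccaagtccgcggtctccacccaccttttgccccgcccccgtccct
Ddit3, plus strand, chr10:127126310-127126409: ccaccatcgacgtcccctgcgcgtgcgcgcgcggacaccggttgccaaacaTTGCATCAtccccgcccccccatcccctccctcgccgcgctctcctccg

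The Chac1 match lay 159 to 152 bases before the canonical start, in the first exon of a longer annotated Chac1 transcript. The match of Sesn2 lay 256 to 249 bases, that of Atf3 103 to 96 bases and that of Ddit3 199 to 192 bases before the start. The other 6 genes, Atf4, Atf5, Trib3, Ddit4, Eif4ebp1 and Niban1, held neither motif in these windows, which says only that these letters are not there. Of the 4 genes with a match, Chac1 was lower with LDL by more than 3-fold in each mouse, Sesn2 was lower by less than 2-fold, Ddit3 overlapped between treatments and Atf3 was higher.

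Across the 10 genes, LDL-treated organoids had less mRNA of most effectors and more of 1. Chac1, Trib3, Atf5 and Niban1 were lower by 3.08-fold to 3.76-fold, Ddit4, Eif4ebp1, Sesn2 and Atf4 were lower by 1.31-fold to 1.58-fold, Ddit3 was close to level, and Atf3 was 2.89-fold higher (ratios of means). Genes were called changed at an adjusted p-value under 0.05 from limma, with Benjamini-Hochberg adjustment, together with a change of more than 1.5-fold. By that rule 4 of the 10 were called lower and 0 higher, where 0.395% of all genes tested were called lower and 0.878% higher. All 3 LDL-treated values lay below all 3 PBS-treated values for 7 of the 10 (12.3% of all genes tested) and above them for 1 (11.9%). Within mice, 8 were lower with LDL in all 3 (26.8% of all genes tested) and 1 was higher in all 3 (24.2%). These counts come from the comparison in which the genes were chosen, and nothing is read from them. The median log2 fold change of the 10 was -0.61, and that of all genes tested was -0.016.

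**Figure D1:**
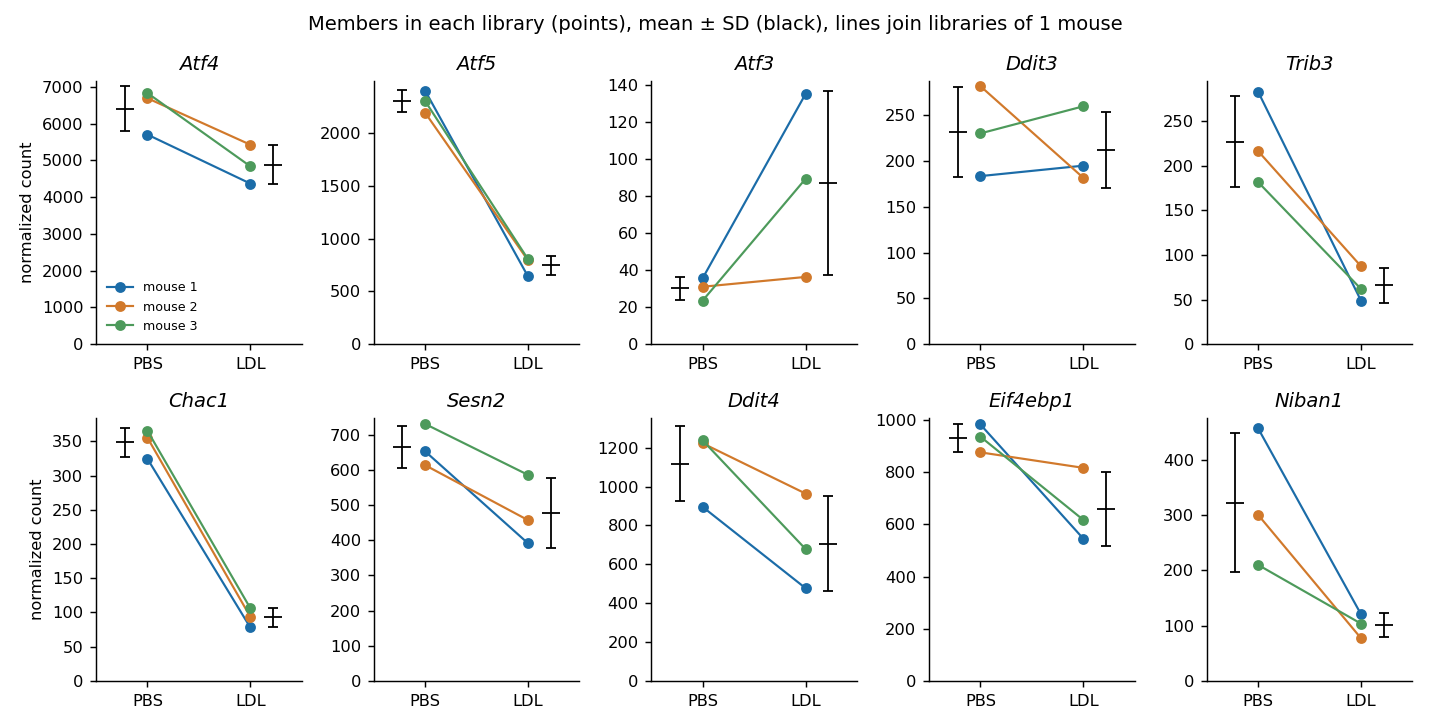
Normalized counts (y axis, linear, from 0) of the 10 genes in PBS- and LDL-treated organoids, with 1 point per library, lines joining the libraries of a mouse, and mean ± SD in black (n = 3). Atf5, Trib3, Chac1 and Niban1 are lower with LDL in every mouse with no overlap of treatments, Atf3 lies at 23.6 to 35.7 with PBS and at 36.4 to 135 with LDL, and the lines of Ddit3 cross.

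Among the transcription factors, Atf4, the bZIP activator at the centre of the response, lies at chr15:80139372-80141745 on the plus strand (GRCm39). It had 5703, 6693 and 6833 normalized counts in the PBS-treated and 4370.1, 5427 and 4839.8 in the LDL-treated libraries of mice 1, 2 and 3. Every LDL-treated value was below every PBS-treated one. The means were 6409.7 ± 616 and 4879 ± 529.7 (SD, n = 3), and the log2 fold change was -0.39 ± 0.12 (SE). The ratio of LDL to PBS was 0.766, 0.811 and 0.708 in the 3 mice, so the difference was of like size in each and under the 1.5-fold threshold.

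Atf5, a relative of Atf4 that is likewise controlled by upstream open reading frames and is known for mitochondrial stress, lies at chr7:44461680-44466082 on the minus strand. It had 2406, 2197 and 2307 normalized counts with PBS and 643, 796 and 807 with LDL. The treatments were far apart for Atf5, and the replicates close, with coefficients of variation of 4.54% and 12.3%. Its means were 2303 ± 105 and 748 ± 91.7, its log2 fold change was -1.63 ± 0.11 (SE), and PBS exceeded LDL by 3.74-fold, 2.76-fold and 2.86-fold in the 3 mice. Exons of Nup62, a nuclear pore gene on the other strand, overlap those of Atf5 by 180 bases. Nup62 itself had a log2 fold change of 0.021 (limma with Benjamini-Hochberg adjustment, adjusted p = 0.939). The library kit marked strand, but the strand setting of the counting was not given in the sources used here.

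Atf3, a bZIP factor induced by many stresses and by growth signals, lies at chr1:190902493-190950241 on the minus strand and was the only gene of the 10 with a higher mean under LDL. It had 35.7, 31.1 and 23.6 normalized counts with PBS and 135, 36.4 and 89.5 with LDL, from 25 to 111 reads per library. The LDL-treated values were all above the PBS-treated ones, but by little in mouse 2, where the ratio of LDL to PBS was 1.17 against 3.79 in mouse 1 and 3.79 in mouse 3. Its means were 30.1 ± 6.11 and 87.1 ± 49.5, with a log2 fold change of 1.33 ± 0.45 (SE). Atf3 was not called in the comparison without a mouse term and was called higher with the mouse as a replicate block. Its log2 fold change was 1.85, and a call, when LDL replicate 2 was left out, and 0.92 when LDL replicate 1 was.

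Ddit3, which encodes CHOP, the factor that links lasting stress to cell death, lies at chr10:127124268-127132163 on the plus strand. It had 184, 282 and 230.4 normalized counts with PBS and 195, 182 and 260.0 with LDL. The treatments overlapped, and the direction differed between mice, with ratios of LDL to PBS of 1.06, 0.645 and 1.13. Its means were 232 ± 49.2 and 212 ± 41.8, and the log2 fold change of -0.12 was smaller than its standard error of 0.21. Its sign turned, to 0.028, without PBS replicate 2. Mars1, a tRNA synthetase gene on the opposite strand, overlaps the exons of Ddit3 by 3576 bases, and its log2 fold change was -0.10 (limma, adjusted p = 0.668). A second identifier named Ddit3 held 0 reads.

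Among these 4 transcription factors, the values of Atf5 were the most separated relative to their spread, Atf4 differed by less than 1.5-fold, Ddit3 overlapped between treatments and Atf3 had the opposite sign.

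Of the feedback and death effectors, Trib3, a pseudokinase that binds ATF4 and AKT and restrains both, lies at chr2:152179337-152191958 on the minus strand. It had 283, 216 and 182 normalized counts with PBS and 48.8, 87.3 and 61.9 with LDL. The treatments did not overlap for Trib3, and mouse 1 had both the highest PBS-treated and the lowest LDL-treated value. Its means were 227 ± 51.4 and 66.0 ± 19.6, its log2 fold change was -1.78 ± 0.26 (SE), and PBS exceeded LDL by 5.80-fold, 2.48-fold and 2.93-fold in the 3 mice. It was no longer called without PBS replicate 1, 2 or 3 or LDL replicate 3, with log2 fold changes then of -1.61, -1.80, -1.93 and -1.76.

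Chac1, a gamma-glutamyl cyclotransferase that breaks down glutathione, lies at chr2:119180757-119184866 on the plus strand. It had 325, 355 and 366 normalized counts with PBS and 78.1, 93.7 and 106 with LDL. The values within each treatment were close, and those of the treatments far apart. Its means were 349 ± 21.3 and 92.6 ± 14.1, and its log2 fold change of -1.91 ± 0.16 (SE) was the most negative of the 10. PBS exceeded LDL by 4.16-fold, 3.79-fold and 3.44-fold, the narrowest span over mice among the 4 genes called lower. Chac1 is a gene with a response element match in the printed window and one of the most separated genes here, whereas Atf5 and Trib3 were separated without such a match in theirs.

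Of the genes that hold back TORC1 signalling or translation, Sesn2, a leucine sensor that inhibits TORC1 through GATOR complexes, lies at chr4:132219335-132237815 on the minus strand. It had 653, 614 and 731 normalized counts with PBS and 392, 457 and 586 with LDL. The treatments did not overlap for Sesn2, but the highest LDL-treated value came within a few percent of the lowest PBS-treated one. Its means were 666 ± 59.7 and 478 ± 99.0, and its log2 fold change was -0.49 ± 0.16 (SE).

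Ddit4, known as REDD1, which inhibits TORC1 through the TSC complex, lies at chr10:59785491-59788492 on the minus strand. It had 895, 1223 and 1238 normalized counts with PBS and 477, 964 and 678 with LDL. The treatments overlapped because mice differed, and within each mouse the LDL-treated value was the lower one. The ratios of LDL to PBS were 0.533, 0.788 and 0.548, the means 1118 ± 193 and 706 ± 245, and the log2 fold change -0.71. Its standard error was 0.25, and 0.12 with the mouse as a replicate block, and Ddit4 was called lower with the block and not without it. It was also called without LDL replicate 2, at -0.96, and had a log2 fold change of -0.45 without LDL replicate 1.

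Eif4ebp1, whose product 4E-BP1 binds the cap-binding protein eIF4E and blocks initiation until TORC1 phosphorylates it, lies at chr8:27750350-27805206 on the plus strand. It had 983, 876 and 936 normalized counts with PBS and 545, 817 and 617 with LDL. The treatments were separate for Eif4ebp1, although in mouse 2 the LDL-treated organoids kept 0.932 of the PBS-treated level, against 0.555 in mouse 1 and 0.659 in mouse 3. Its means were 932 ± 53.6 and 659.6 ± 141, and its log2 fold change was -0.52 ± 0.15 (SE). Without LDL replicate 2 it was called lower, at -0.68.

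Niban1, a stress-induced gene linked to control of translation and cell death, lies at chr1:151446230-151597690 on the plus strand. It had 457, 301 and 210.1 normalized counts with PBS and 121, 77.3 and 104 with LDL. The treatments did not overlap, and the PBS-treated values of Niban1 varied most of the 10 genes in that treatment, with a coefficient of variation of 38.8%. Its means were 323 ± 125 and 101 ± 21.9, its log2 fold change was -1.62 ± 0.29 (SE), and PBS exceeded LDL by 3.79-fold, 3.89-fold and 2.03-fold. Its call was lost without any 1 library except LDL replicate 2, at log2 fold changes of -1.90 to -1.34.

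With the mouse as a replicate block, 5 of the 10 were called lower (Atf5, Trib3, Chac1, Niban1 and Ddit4) and Atf3 was called higher, where 3.46% of all genes tested were called lower and 5.68% higher. Atf4, Sesn2, Eif4ebp1 and Ddit3 were called neither with nor without it. On recovered reads with the block, edgeR (3.19% of all genes lower, 6.34% higher) and DESeq2 (2.78% lower, 5.33% higher) called the same 5 lower and Atf3 higher. Without the block edgeR called Atf5, Trib3 and Chac1 lower (0.379% of all genes lower, 1.01% higher), and DESeq2 called Niban1 lower and Atf3 higher as well (1.89% lower, 4.58% higher). Without LDL replicate 1, Atf5, Trib3 and Chac1 were still called lower, with log2 fold changes of -1.52, -1.59 and -1.79. Niban1 was then not called, at -1.77. When both libraries of mouse 3 were left out, none of the 10 was called and 0 of all genes tested were, with log2 fold changes of -1.68 for Atf5 and -1.98 for Chac1.

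The 3 mice differed in the size of the difference. Of the 9 genes with a lower mean under LDL, the largest difference was in mouse 1 for 6, in mouse 2 for 2 and in mouse 3 for 1, and the smallest was in mouse 2 for 5, in mouse 3 for 4 and in mouse 1 for 0. The median log2 ratio of LDL to PBS over the 10 genes was -0.88, -0.53 and -0.73 in mice 1, 2 and 3, and over all genes tested it was -0.039, 0.0014 and -0.016. As a share of all reads on genes, the 10 together took 0.0479%, 0.0466% and 0.0516% in the PBS-treated and 0.0240%, 0.0345% and 0.0335% in the LDL-treated libraries. The lowest of these, in LDL replicate 1, comes from the library that stood apart in ribosomal and protein-coding share. The part of that library composition in the values of mouse 1 was not tested.

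**Figure D2:**
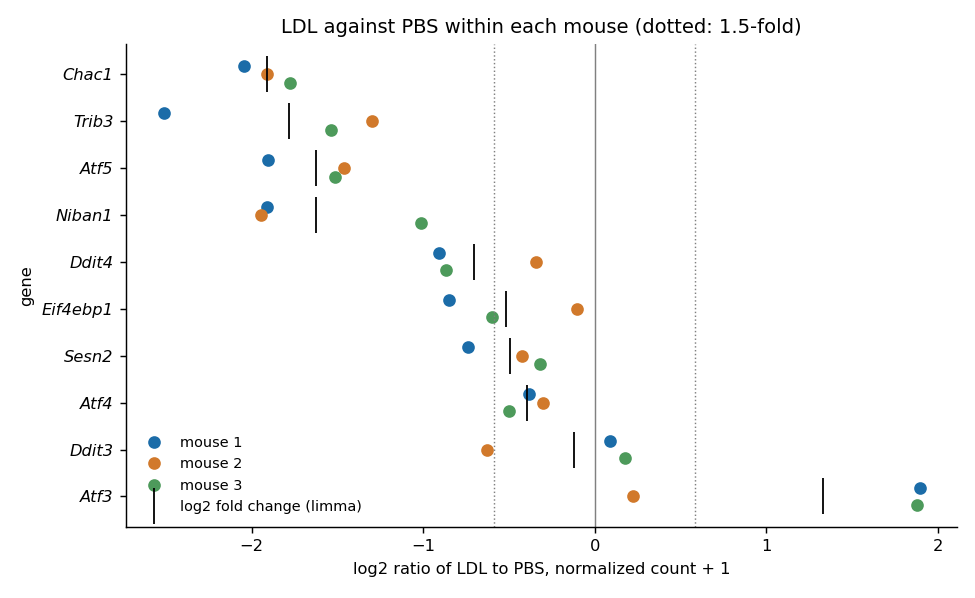
Log2 ratio of LDL to PBS within each mouse (x axis) for the 10 genes (y axis), from normalized counts plus 1, with 1 colored point per mouse, a bar at the limma log2 fold change and dotted lines at 1.5-fold. The points of Chac1, Trib3, Atf5 and Niban1 lie beyond the dotted line in every mouse, those of Atf4 lie between -0.50 and -0.30, and those of Ddit3 lie on both sides of 0.

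Levels were compared between genes per kilobase of canonical transcript, as normalized counts per kilobase. With PBS the order was Atf4 at 3682 ± 354, Atf5 at 1268 ± 57.6, Ddit4 at 635 ± 109.9, Eif4ebp1 at 465 ± 26.8, Ddit3 at 237 ± 50.2, Chac1 at 209.7 ± 12.8, Sesn2 at 191 ± 17.1, Trib3 at 108 ± 24.6, Niban1 at 47.7 ± 18.5 and Atf3 at 15.2 ± 3.08. The libraries overlapped between Ddit3 and Chac1 and between Chac1 and Sesn2, and not between the other neighbors in that order. With LDL, Atf4 at 2802 ± 304 still led, and Atf5 at 412 ± 50.5, Ddit4 at 401 ± 139 and Eif4ebp1 at 329 ± 70.2 were next, with overlapping libraries between Atf5 and Ddit4 and between Ddit4 and Eif4ebp1. Chac1 at 55.7 ± 8.48, Atf3 at 43.9 ± 25.0 and Trib3 at 31.6 ± 9.37 followed Ddit3 and Sesn2 and also overlapped as neighbors. Niban1, at 14.9 ± 3.23, was lowest. The level of Atf4 was 2.90 times that of Atf5 with PBS and 6.80 times with LDL, as a ratio of these means.

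The genes whose pattern over the 6 libraries was most like that of Atf4, Atf5 and Trib3 were sought among 11930 other genes with a mean of at least 100, by Pearson's r of log2 values. Because the 6 libraries share the treatment difference, a high r is a description only. For Atf4 they were Atxn7l3b, Maco1, Tmem59, Gm16200 and Plpp3, with r from 0.997 to 0.989. The nearest to Atf5 were Serpina1b, Kdm4a, Plxna3, Fcgbpl1 and Trmt1, with r from 0.997 to 0.992. Those of Trib3 were Tmem117, Aspg, Inpp5j, Gpt2 and 2610008E11Rik, with r from 0.997 to 0.993. The difference itself was unequal among these look-alikes, with log2 fold changes from -1.54 for Serpina1b to -0.21 for Trmt1 beside the -1.63 of Atf5. Gpt2 is the only one of the 15 that was also on a list of ATF4 targets.

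The other genes of the pathway were taken from 15 lists written from general knowledge, with earlier results of these data known. The upstream kinases and the initiation factor that they act on came first. For every list, the count with an unadjusted p under 0.05 stands beside 3634 of 18459 over all genes tested. None of 4 eIF2alpha kinase genes was called by limma, edgeR or DESeq2 with or without the block, and 0 had an unadjusted p under 0.05. Eif2ak2 (PKR) had means of 1319 ± 144 and 1354 ± 48.4, Eif2ak1 (HRI) of 957 ± 11.6 and 929 ± 20.3, and Eif2ak4 (GCN2) of 799.7 ± 92.8 and 746 ± 48.9, each with PBS and LDL in that order. The treatments overlapped for these genes. Eif2ak3 (PERK) had means of 506 ± 10.5 and 578 ± 14.0, with a log2 fold change of 0.19. All its LDL-treated values lay above its PBS-treated ones, as for 11.9% of all genes tested. Of 15 genes for eIF2, its exchange factor eIF2B and the eIF2alpha phosphatases, 0 were called by any of these tools and 3 had an unadjusted p under 0.05. Their log2 fold changes ran from -0.25 to 0.36 with a median of 0.018. The 3 most abundant were Eif2s3x, at means of 11230.1 ± 2586 and 10862 ± 3103, Ppp1cc at 6735 and 5916, and Eif2s2 at 5186 and 5211. Eif2s3x was lowest in mouse 3 under both treatments, at 8264 with PBS and 7333 with LDL. All LDL-treated values lay above all PBS-treated ones for 4 of the 15 genes (11.9% of all genes tested) and below them for 0 (12.3%).

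Known ATF4 targets outside the 10 were 59 genes in 4 lists, of which 58 passed the filter. Of these, 8 were called lower and 0 higher, against 0.395% and 0.878% of all genes tested, and 26 had an unadjusted p under 0.05 against 3634 of 18459 in all. Because the lists were written with earlier results of these data known, these counts are a description, and nothing is read from them. For the count of 0, edgeR without the block gave 0, DESeq2 without the block gave 2, and the block gave 2 with limma, 3 with edgeR and 2 with DESeq2. With the mouse as a replicate block limma called 13 lower. The median log2 fold change of the 58 was -0.18, with 42 below 0 and 16 above, where 52.4% of all genes tested were below 0. Single libraries decided the count called lower, which was 1 without PBS replicate 1 or 2, 2 without PBS replicate 3, 4 without LDL replicate 1, 13 without LDL replicate 2 and 0 without LDL replicate 3.

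The calls were unevenly spread over the 4 lists, and 7 of the 8 fell in amino acid and one-carbon synthesis, where 15 genes had a median log2 fold change of -0.76 and 14 were below 0. Aldh1l2, a mitochondrial folate dehydrogenase, had 923, 1157 and 694 normalized counts with PBS and 47.6, 125 and 66.9 with LDL. It fell by 3.60 on the log2 scale (adjusted p = 0.00576 from limma with Benjamini-Hochberg adjustment), which is a steeper difference than that of any of the 10 genes. Cth, which makes cysteine from cystathionine, had 2647, 3199.8 and 2117 normalized counts with PBS and 495, 1247 and 565 with LDL (log2 fold change -1.89, limma adjusted p = 0.0421). Gpt2, a mitochondrial alanine aminotransferase, had 587, 496 and 462 with PBS and 151, 216 and 159.7 with LDL (log2 fold change -1.56, limma adjusted p = 0.0104). Pck2, the mitochondrial PEP carboxykinase, had 3264, 2628 and 2822 with PBS and 975, 1485 and 1071 with LDL (log2 fold change -1.32, limma adjusted p = 0.0157). In all 4, the LDL-treated values lay below the PBS-treated ones, and LDL replicate 2 held the highest of the 3, as it also did for Atf4, Trib3, Ddit4 and Eif4ebp1.

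Psph, Mthfd2 and Psat1, which act in serine and folate metabolism and were named after their values were seen, also fell, with log2 fold changes of -0.94, -0.79 and -0.76 (limma adjusted p = 0.0411, 0.0186 and 0.0461). Asns, asparagine synthetase, had a log2 fold change of -0.71 (limma adjusted p = 0.0538), and Pycr1, of proline synthesis, one of -0.89 (limma adjusted p = 0.078), and both were called lower with the replicate block. The same 9 genes were called by DESeq2 with and without the block and by edgeR with it. Of the 7, Aldh1l2 alone kept its call without PBS replicate 1 or 2, and none did without LDL replicate 3, with Aldh1l2 then at -3.54. Without PBS replicate 3, Aldh1l2 and Gpt2 kept theirs. Without LDL replicate 1, Cth, Psph and Psat1 lost theirs, at log2 fold changes of -1.64, -0.88 and -0.68. edgeR without the block did not call Cth. Mthfd1l was the 1 gene of the list with a higher mean, at means of 2216 ± 122 with PBS and 2307 ± 108 with LDL.

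**Figure D3:**
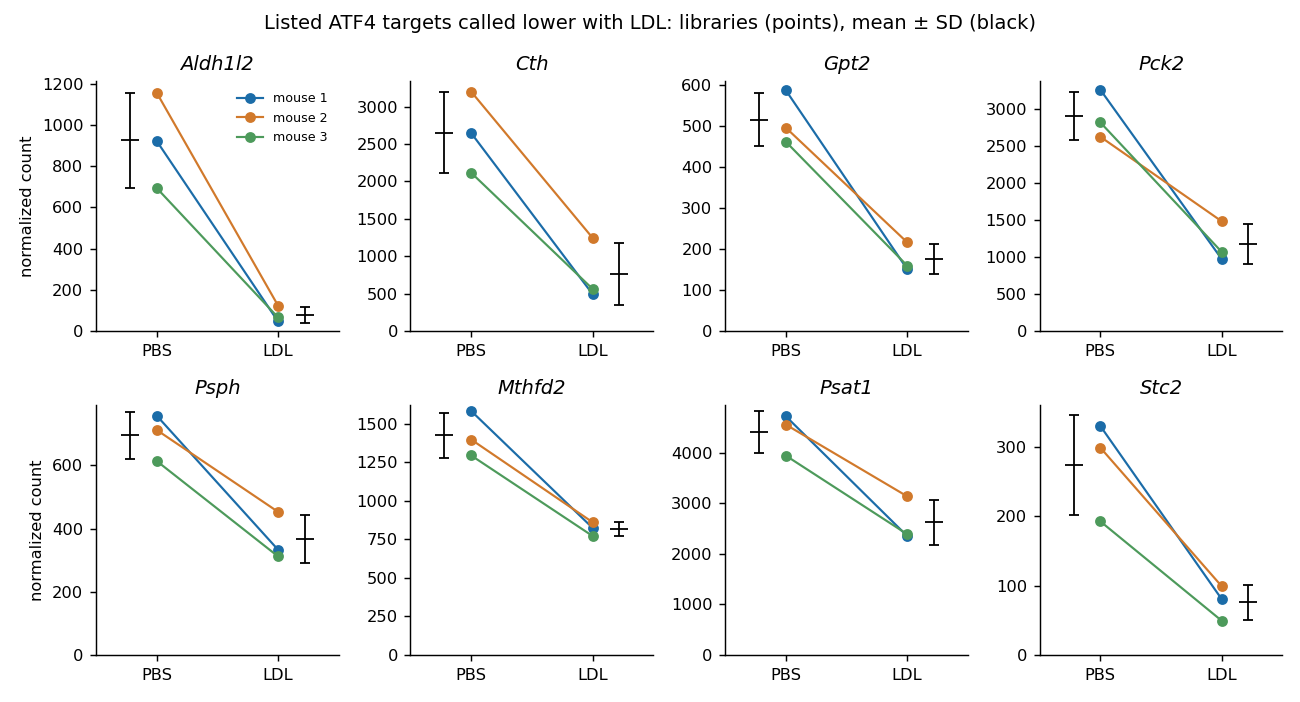
Normalized counts (y axis, linear, from 0) of the 8 listed ATF4 targets called lower with LDL, with 1 point per library, lines joining the libraries of a mouse, and mean ± SD in black (n = 3). In each of the 8 panels all 3 lines go down and the treatments do not overlap, from 694 to 1157 down to 47.6 to 125 for Aldh1l2.

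The other 3 target lists held 1 call. Of 11 amino acid transport genes 0 were called, with 4 at an unadjusted p under 0.05 and a median log2 fold change of -0.18. The 3 most abundant were Slc7a1, at means of 6513 with PBS and 5323 with LDL, Slc38a1 at 4259 and 5367, and Slc38a2 at 4291 and 4518. With the replicate block limma called Slc7a3 lower, edgeR called Slc7a3 lower and Slc7a11, the cystine importer, higher, and DESeq2 called 0. Of 13 genes for cytosolic tRNA charging and export, 0 were called by limma, edgeR or DESeq2, with or without the block, and 4 had an unadjusted p under 0.05. Their log2 fold changes ran from -0.45 to 0.20, with Eprs1 at -0.12, Nars1 at -0.32 and Iars1 at -0.31 as the most abundant. Of 19 secreted and other effectors, Stc2, a secreted glycoprotein, was called lower, with 331, 299 and 193 normalized counts with PBS and 80.5, 99.1 and 49.3 with LDL (log2 fold change -1.85, limma adjusted p = 0.0345). The call of Stc2 was lost without any 1 library except LDL replicate 2, at -2.09 to -1.57, and stood at -1.92 without LDL replicate 1. With the block 3 of this list were called lower and 2 higher.

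**Figure D4:**
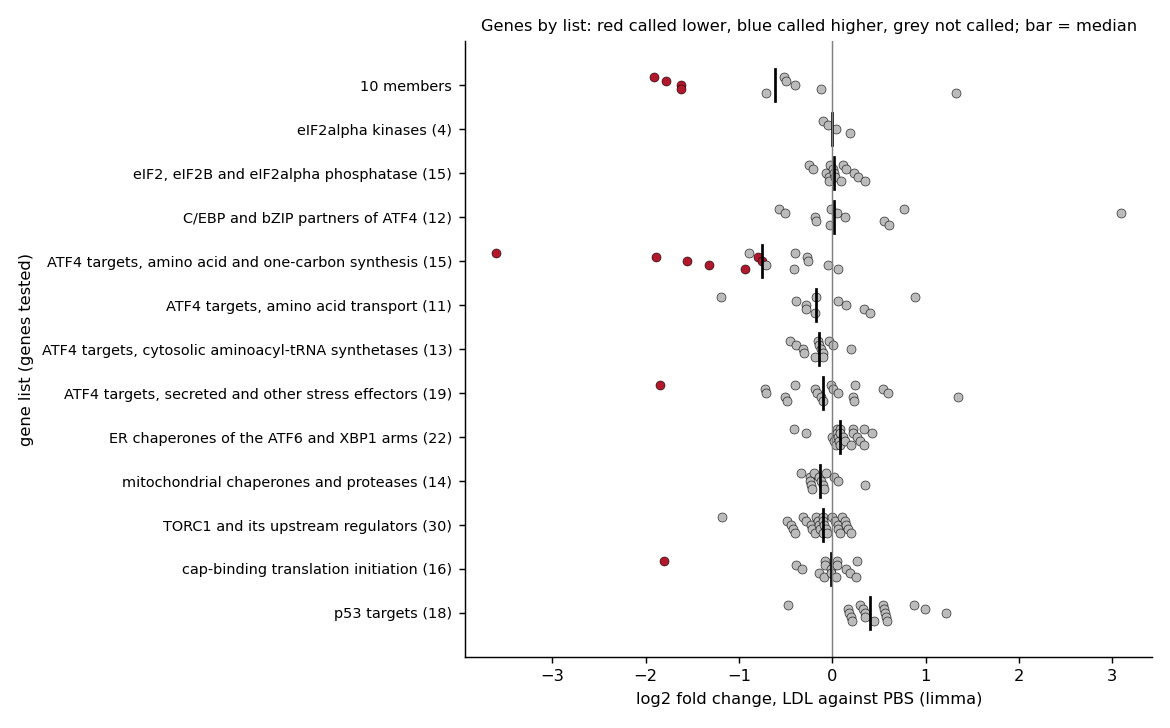
Log2 fold change of LDL against PBS (x axis) of each gene tested in the 10 genes and in 12 lists (y axis, number tested in brackets), with called genes in red, genes not called in grey and a bar at each median. The median of the 10 genes is at -0.61, that of amino acid and one-carbon synthesis at -0.76, and those of the eIF2alpha kinases, the eIF2 genes and the cap-binding genes lie between -0.014 and 0.018.

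Partners and relatives of the 10 genes were described next. Of 12 C/EBP and bZIP partners tested 0 were called by limma without the block, and 5 had an unadjusted p under 0.05. Cebpg, the C/EBP protein that pairs with ATF4 most readily, had means of 2159 ± 141 with PBS and 1522 ± 66.9 with LDL (log2 fold change -0.50, limma adjusted p = 0.0443), under the 1.5-fold threshold. The most abundant were Nfe2l2, at 4753 and 6934 (log2 fold change 0.55, limma adjusted p = 0.0704), and Nfe2l1, at 2500.1 and 2589.8. With the replicate block Fosl1, Jun and Junb of this list were called higher by limma, where 5.68% of all genes tested were. edgeR without the block called 0 and DESeq2 without it called Fosl1 and Junb.

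Of 19 paralogs tested, Creb3l3, a membrane-bound bZIP factor of liver and intestine that acts on lipid metabolism, rose from 304, 429.9 and 310.2 normalized counts with PBS to 1065, 1742 and 1441 with LDL (log2 fold change 2.01, limma adjusted p = 0.00828). It was the only paralog called. Its call was lost without PBS replicate 1 or LDL replicate 3, at 1.92 and 1.98. With the block Sesn3 and Creb3l4 were called lower and Trib1 and Ddit4l higher as well, so that the relatives of Trib3 and of Ddit4 had log2 fold changes of the other sign, 0.91 and 1.11, and the relative of Sesn2 one of the same sign, -0.66.

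Genes of the neighboring stress arms and of the machinery that the TORC1 and translation genes act on held few calls. Of 22 endoplasmic reticulum chaperone and quality control genes 0 were called by limma, edgeR or DESeq2, with or without the block. Of these 22, 6 had an unadjusted p under 0.05 and 19 had a higher mean, where 8789 of all 18459 genes tested had a higher mean. The most abundant were Calr, at 19288 and 24377, Canx at 17000.3 and 16904, and Hsp90b1 at 11185 and 13018. Of 14 mitochondrial chaperones and proteases 0 were called by these tools and 2 had an unadjusted p under 0.05, with Hspd1, Hspa9 and Hspe1 the most abundant at log2 fold changes of -0.09, -0.22 and -0.23. Of 30 TORC1 genes tested 0 were called and 4 had an unadjusted p under 0.05, with Sec13, Seh1l and Deptor at log2 fold changes of -0.10, -0.18 and -0.42. The block added Rragd, a Rag GTPase, as lower in limma, edgeR and DESeq2. Of 16 cap-binding and initiation genes, Pdcd4, an inhibitor of the helicase eIF4A, fell from means of 3720.5 ± 539.5 to 1158 ± 636 (log2 fold change -1.80, limma adjusted p = 0.0465), a call that edgeR without the block did not make and that was lost without any 1 library except LDL replicate 2, at -1.89 to -1.54.

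Markers of cell types were read beside these values. All 8 epithelial markers were present, with summed normalized counts of 88060 to 91866 with PBS and 98467 to 130543 with LDL. Goblet markers summed to 40441 to 46265 with PBS and 23397 to 29357 with LDL, with no overlap and with 1 of 3 (Fcgbp) called lower. Stem markers summed to 6654 to 17777 and 3959 to 7527, Paneth markers to 8804 to 14418 and 7878 to 9067, enteroendocrine markers to 7770.2 to 12496 and 6085 to 9292, and tuft markers to 154 to 213 and 119 to 189, with 0 of 12 called. With the replicate block Olfm4, Defa24 and Pou2f3 of these 12 were called lower and Ascl2 and Mmp7 higher. Most of the stem sum was Olfm4 (log2 fold change -1.17), and the other stem markers, Lgr5 and Ascl2, had log2 fold changes of the other sign, which for Lgr5 was 0.40. Enterocyte markers summed to 14585 to 31414 and 17460 to 35737, with 1 of 5 (Alpi) called higher, and the block added Tff3 of the goblet markers as lower and Apoa4 of the enterocyte and Krt8 and Krt18 of the epithelial markers as higher. Markers of other tissues were near 0, at 30.9 to 86.6 for 7 stromal, 33.4 to 61.0 for 5 immune, up to 25.6 for 3 endothelial and 26.9 to 72.0 for 3 neural and glial genes over all libraries, with S100b called higher and Dcn at 0 in all 3 PBS-treated libraries. The part of goblet or other cell shares in the values of the 10 genes was not tested.

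**Figure D5:**
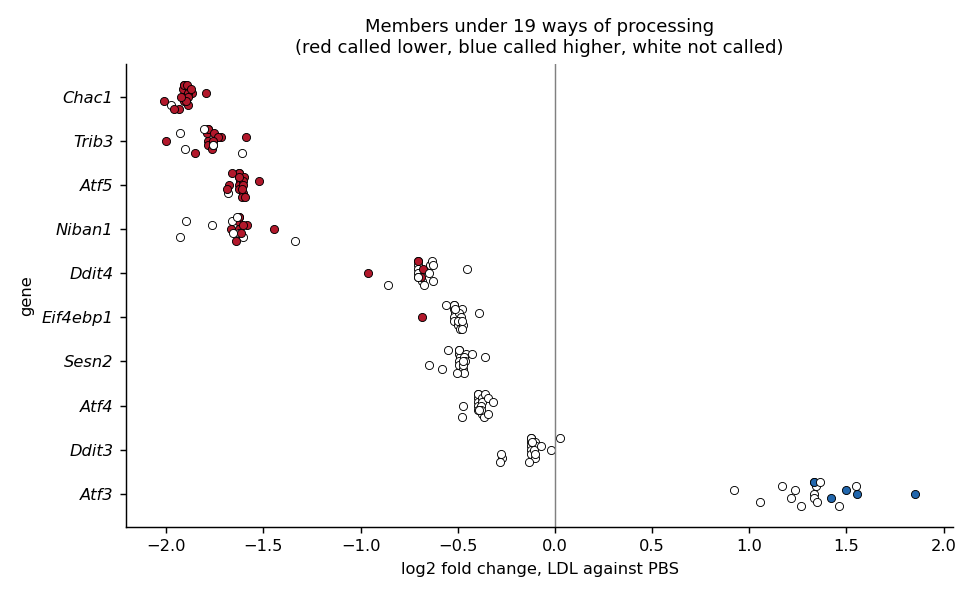
Log2 fold change of LDL against PBS (x axis) of the 10 genes (y axis) under 19 ways of processing, that is, the reported one and 18 alternatives, with red points called lower, blue points called higher and white points not called. Atf5 and Chac1 are called in 17 of the 18 alternatives, Trib3 in 13 and Niban1 in 9, and Atf4, Sesn2 and Ddit3 in none.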

How the data were processed

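The 6 libraries were RNA-Seq of LDL- and PBS-treated organoids from 3 mice. Groups and mouse numbers were taken from the labels. As a check of the pairing, deviations from the treatment means correlated across genes with r = 0.48, 0.42 and 0.46 between libraries of the same mouse and with -0.37 to -0.08 between mice. Per the labels and the study's methods, total RNA was depleted of ribosomal RNA, libraries were made with a stranded kit, and reads were demultiplexed with bcl2fastq 2.20, aligned to GRCm39 with STAR, counted with featureCounts and analyzed with DESeq2. The deposited values were used as signal, that is, normalized counts, in which every gene's reads had been divided by a library's own size factor. Whole reads were recovered for 100% of the deposited values within 0.01 of a read. Of 55416 genes 12377 held no read, and 54749 identifiers were found in GENCODE M39.

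LDL and PBS were compared with limma 3.58.1 in R 4.3.3 (eBayes with a trend, two-sided, no mouse term) on log2 of the normalized count plus 1 after a filter (mean of 10 or more, 18459 genes), with Benjamini-Hochberg adjustment over all of them. Fold changes are on this log2 scale, which understates those of low genes. Changes were called at an adjusted p under 0.05 and more than 1.5-fold. Without a mouse term, the p-values treat the 6 libraries as independent, although the same 3 mice gave both treatments. They rest on the spread between libraries of a treatment, moderated over all genes. Alternatives were pseudocounts, filters, scalings, the mouse as a replicate block, edgeR 4.0.16 and DESeq2 1.42.0 on recovered reads, and libraries left out. The test was also run on simulated data, from which nothing is read here. Figures were drawn with matplotlib 3.10.9 and tables with pandas 2.3.3 in Python 3.11.15.

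The 10 genes and the 15 gene lists were chosen with earlier results of these data known. Besides the 10 genes, the called genes of each list with the largest fold changes were named (up to 4, mean of 50 or more), or the 3 most abundant where none was called, and the 5 genes most like Atf4, Atf5 and Trib3. Other genes were named after their values were seen. A further gene that the naming rule includes is not reported here. Promoter sequence was read from the GRCm39 genome. Protein sequences were not used here.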

Additional observations from a re-analysis of the deposited data

How the results depend on the processing

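Over 18 alternatives, the log2 fold changes of Atf5 (-1.69 to -1.52), Chac1 (-2.01 to -1.79), Trib3 (-2.002 to -1.59), Niban1 (-1.93 to -1.34), Ddit4 (-0.96 to -0.45), Eif4ebp1 (-0.68 to -0.39), Sesn2 (-0.65 to -0.36), Atf4 (-0.48 to -0.32) and Atf3 (0.92 to 1.85) kept their direction, and that of Ddit3 ran from -0.28 without PBS replicate 1 to 0.028 without PBS replicate 2, where its sign turned. Niban1 was not called with a mean of at least 50, with upper-quartile scaling or by edgeR without the block. The reported counts were 73 genes lower and 162 higher, 4 of the 10 genes lower, and 8 of the listed ATF4 targets lower and 0 higher. With no filter on low values, 245 genes were lower and 506 higher, as 43039 genes were tested. The mouse as a replicate block gave 639 and 1048 with limma, 588 and 1171 with edgeR, and 513 and 984 with DESeq2, which without the block gave 348 and 846. Listed targets were then 13 lower and 2 higher with limma, 13 and 3 with edgeR, and 2 higher with DESeq2, with or without the block. With both libraries of replicate 3 left out every count was 0. Leaving out 1 library gave 2 to 1133 genes lower and 18 to 1179 higher, 2 to 6 of the 10 genes lower, and 0 to 13 targets lower and 0 to 4 higher. These ranges have their highest values without LDL replicate 2 and their lowest without LDL replicate 3. The 0 of higher targets came also without 4 others, and the 2 of the 10 genes also without PBS replicate 1, 2 or 3. The cause of these shifts was not tested.

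The replicate block changed the calls of Atf3 and Ddit4 with limma, of Atf3, Ddit4 and Niban1 with edgeR and of Ddit4 with DESeq2, and no other call of the 10 genes. The lowest mean of the 10 was that of Atf3, at 25 to 111 reads a library.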

Other observations

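Groups of genes that respond to other stresses were read as values beside the 10 genes. Of 18 p53 targets 0 were called by limma and 0 by edgeR without the block, 11 had an unadjusted p under 0.05, and 17 had a higher mean with LDL, with a median log2 fold change of 0.40. Over all genes tested 3634 of 18459 had such a p, and 8789 had a higher mean. The most abundant were Ccng1, at means of 4519 with PBS and 5106 with LDL, Perp at 2069 and 2614, and Aen at 1821 and 2113. With the replicate block limma called 3 higher (Cdkn1a, Phlda3 and Plk2) and edgeR and DESeq2 each called 6, and DESeq2 without the block called 3. The shares of all genes tested called higher were 5.68%, 6.34%, 5.33% and 4.58%, in that order.

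Hypoxia and glucocorticoid-responsive genes were included because Ddit4 is also known as a target of both. Of 15 tested, Egln3, a prolyl hydroxylase induced by hypoxia, had 133, 205 and 140.0 normalized counts with PBS and 489, 666 and 426 with LDL (log2 fold change 1.72, limma with Benjamini-Hochberg adjustment, adjusted p = 0.0175). Slc2a1, the glucose transporter GLUT1, had 731, 806 and 725 with PBS and 1559, 1143 and 1499 with LDL (log2 fold change 0.88, limma adjusted p = 0.0269). Both rose, whereas Ddit4 had a lower value with LDL in each mouse. Egln3 lost its call without PBS replicate 1 or 3 or LDL replicate 3, at 1.60, 1.64 and 1.86, and Slc2a1 without any 1 library except LDL replicate 2, at 0.80 to 0.93. The list's median log2 fold change was 0.39. With the block limma added Adm as higher and Tsc22d3, a glucocorticoid target, as lower, the latter at -1.32.

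Of 10 immediate early genes tested, Ier3, a target of growth and stress signals, rose from 66.4, 70.8 and 57.0 normalized counts with PBS to 395, 152 and 347 with LDL (log2 fold change 2.08, limma adjusted p = 0.0353). Its call was lost without any 1 library except LDL replicate 2, at 1.82 to 2.14. With the block Fos, Egr1 and Dusp1 were called higher as well. In Ier3 and in Atf3, the LDL-treated value of mouse 2 was the lowest of the 3. These lists were described by counts and medians only, and no relation between them and the 10 genes was tested.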
